A study of Mus musculus with 35 samples.

Results

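The genes described here encode the ESCRT complexes, the retromer and related vacuolar protein sorting complexes, and the sorting nexins. Members were all probe sets that name exactly 1 gene whose symbol starts with Vps, Chmp or Snx followed by a digit, together with those of Tsg101, Hgs, Stam, Stam2, Snf8, Pdcd6ip and Mvb12a. This gave 81 genes of the 18194 genes named on the array and 178 probe sets. Each gene is represented by its brightest probe set, the one with the highest mean over all arrays, and the other probe sets are used to see whether they moved the same way.

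The study asked how gene expression changes in spinal motoneurons of a mouse model of amyotrophic lateral sclerosis (ALS) and what treatment with granulocyte colony-stimulating factor (G-CSF) does to it. Per mouse, 300 motoneurons of the lumbar spinal cord were cut out by laser from thionin-stained sections, their RNA was amplified and hybridized to 1 Affymetrix mouse genome array, and the values are log2 intensities normalized by the GCRMA algorithm. At week 11 of age there were 6 wild-type (WT) and 8 SOD1 mice, and at week 15 there were 3 groups of 7: WT animals, SOD1 animals given vehicle and SOD1 animals given G-CSF. SOD1 mice were hemizygous females of B6.Cg-Tg(SOD1-G93A)1Gur/J, which carries a high number of copies of mutant human SOD1, and WT mice were littermates on the same C57BL/6 background. Vehicle or G-CSF (filgrastim) was delivered from week 11 to week 15 by a minipump under the skin, and no pump is stated for WT mice. Genotype and pump can therefore not be told apart where SOD1 mice of week 15 are compared with WT mice. The transgene is carried by all cells of the animal, so the model does not limit the mutant protein to motoneurons.

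Membrane proteins that are to be degraded are tagged with ubiquitin and handed along the ESCRT machinery: ESCRT-0, ESCRT-I and ESCRT-II collect the cargo on the endosome, ESCRT-III filaments of Chmp proteins bud it into the lumen, and the Vps4 ATPases take the filaments apart. Cargo that is to be kept is returned instead. The retromer and the SNX-BAR sorting nexins, which bend membranes, carry receptors from endosomes to the Golgi or the cell surface, retriever and Snx17 recycle others, and the tethering complexes HOPS, CORVET, GARP and EARP dock the vesicles on their target. Neurons depend on this traffic over long axons, and mutations of retromer and Vps13 genes are known causes of neurodegenerative diseases, among them Parkinson's disease and chorea-acanthocytosis.

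The brightest probe set of 79 of the 81 genes passed the filter on low and invariant values, which is not a test of detection. Those of Vps37b, an ESCRT-I subunit, and Snx31 did not pass, although the lowest value of Vps37b, 2.72, was above the filter's level of 2.40. The brightest probe set was above the median of the array on all 35 arrays for 67 genes, including all 4 retromer core genes, all 3 ESCRT-0 genes and 8 of 9 Chmp genes, and Snx31 was below it on every array. Of the 178 probe sets 155 passed the filter. Among the cell type markers, all 11 general neuron markers and 7 of 9 measured motoneuron markers lay above the array median on every array, whereas Chat, the enzyme that makes acetylcholine, had a mean of only 3.17 (lowest 2.49, highest 5.00), close to the array medians of 3.19 to 3.47. Markers of oligodendrocytes and astrocytes were also bright (7 of 9 and 9 of 10 above the median on every array). 3 arrays stood apart in a principal component analysis, those of WT week 11 mouse 6 and of vehicle-treated mice 3 and 5. Results are given without them where that changes the call of a member. Calls of partner and marker genes were not checked in this way.

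A member was called when its unadjusted p was under 0.05, its adjusted p under 0.1 over all 31352 filtered probe sets and its fold change at least 1.5. All tests are limma fits over the 5 groups, and adjusted p-values are Benjamini-Hochberg values of limma. Differences are given on the log2 scale as the first group minus the second, with the standard error (SE) of the fit. Fewer cells of a type and less RNA per cell cannot be told apart in these samples of pooled cells.

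**Figure D1:**
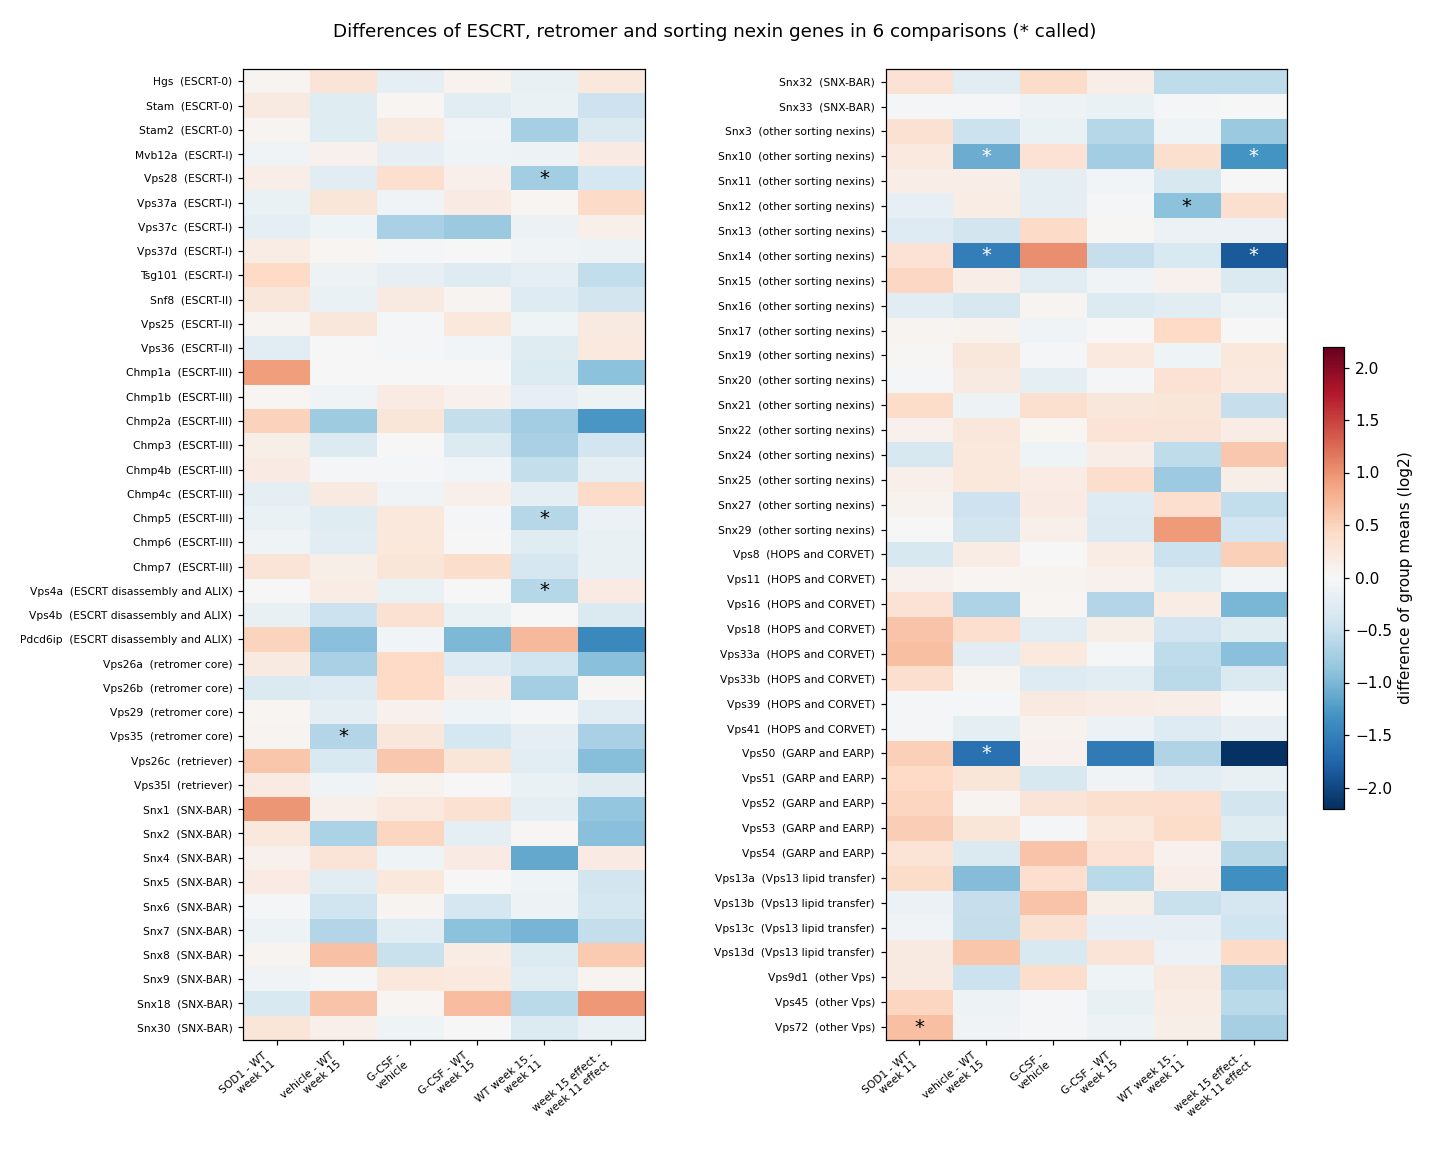
Log2 difference of each of the 79 tested members (rows, grouped by complex) in 6 comparisons (columns), with red for higher and blue for lower in the first group and an asterisk for a called difference. Calls are few in each column: 1 at week 11, 4 in vehicle against WT, 0 for both columns with G-CSF, 4 between the WT groups and 2 for the difference of the SOD1 effects.

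At week 11, before motor symptoms, few differences between SOD1 and WT motoneurons were called in these genes. Of the 79 tested members 1 was called higher and 0 lower in SOD1 mice, against 1.56% of all 13697 genes tested called higher and 0.204% called lower. The called gene was Vps72, whose product is a subunit of chromatin-remodelling complexes that handle histone H2A.Z and not a sorting protein, although the rule on symbols includes it. Its level ranged from 3.54 to 4.41 (median 3.88) in WT and from 4.37 to 4.79 (median 4.57) in SOD1 mice. In 7 of 8 SOD1 mice it was above every WT mouse. The difference was 0.66 (SE 0.16, 1.58-fold, limma adjusted p = 0.0523), and it was no longer called without SOD1 mouse 8 or WT mouse 2, 5 or 6 (range of the difference over single mice left out 0.58 to 0.76).

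The other members did not pass the test at this age in the main fit. The difference was above 0 in 54 of 79 members (68.4%), against 53.6% of all genes, with a median of 0.11 against 0.03 over all genes. Over all 155 filtered member probe sets it was above 0 in 87 (56.1%), against 48.6% of all probe sets. An unadjusted p under 0.05 was reached by 8 members, all higher in SOD1 mice, which is 10.1% of the members against 8.03% of all genes, while 0 were lower against 4.24%. Besides Vps72 these were Snx1 with a difference of 0.98, Chmp1a with 0.91, Vps18 with 0.63, Vps26c with 0.61, Vps45 with 0.47, Vps51 with 0.44 and Snx21 with 0.40. Snx1, a SNX-BAR protein that works with the retromer, ranged from 3.97 to 7.16 (median 6.72) in WT and from 6.34 to 7.72 (median 7.38) in SOD1 mice. Chmp1a, an ESCRT-III subunit, ranged from 4.51 to 7.67 (median 6.81) in WT and from 7.20 to 8.17 (median 7.45) in SOD1 mice. Their adjusted p-values in limma were 0.238 and 0.158. Both lowest values belonged to WT mouse 6, 1 of the 3 arrays that stood apart, and without it the differences were 0.51 (SE 0.28) for Snx1 and 0.49 (SE 0.21) for Chmp1a. All 5 GARP and EARP genes had positive differences, between 0.30 for Vps54 and 0.54 for Vps53, and 0 of them were called. Here WT mouse 6 was the lowest WT mouse for Vps50 (6.70) and Vps52 (4.52) and the highest for Vps51 (5.67) and Vps54 (8.77). The member with the most negative difference was Vps8, a CORVET subunit, at -0.36.

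The ATPase gene Vps4b showed different behaviour between its probe sets at week 11. Its brightest probe set, 1417007_a_at, ranged from 11.27 to 11.79 in WT and from 11.08 to 11.43 in SOD1 mice, a difference of -0.16 (SE 0.14). A dimmer probe set, 1457067_at, ranged from 5.36 to 6.60 (median 6.32) in WT and from 2.87 to 6.35 (median 4.72) in SOD1 mice, and 7 of 8 SOD1 mice lay below every WT mouse. That probe set was called lower (difference -1.64, SE 0.43, limma adjusted p = 0.0674), 1 of 155 member probe sets against 0.188% of all probe sets. The call ended without SOD1 mouse 4, 5 or 8 or WT mouse 3, 5 or 6, and without the 3 arrays that stood apart (difference -1.62, limma adjusted p = 0.124).

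At week 15, when motor symptoms are present, 4 members were called lower and 0 higher in vehicle-treated SOD1 mice than in WT mice. The 4 were Snx10, Snx14, Vps35 and Vps50. They are 5.06% of the members, and 5.27% of all genes were called lower, so the share of members did not stand above the background. Over all genes 1.98% were called higher. An unadjusted p under 0.05 was reached by 13 lower members (16.5%, against 12.8% of all genes) and by 3 higher ones (3.80%, against 9.13%). The median difference of the members was -0.09 against -0.01 over all genes, and 31 of 79 members (39.2%) had a difference above 0 against 49.4% of all genes.

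Snx10, a small sorting nexin of endosomes that is mutated in a form of osteopetrosis, gave the lowest adjusted p. Its level ranged from 9.92 to 10.76 (median 10.39) in WT mice of week 15, from 8.67 to 9.85 (median 9.16) in vehicle-treated and from 8.46 to 10.04 (median 9.67) in G-CSF-treated mice. All 7 vehicle-treated mice lay below all 7 WT mice. At week 11 it ranged from 9.03 to 10.31 (median 10.23) in WT and from 9.78 to 10.57 (median 10.21) in SOD1 mice. The SOD1 mice of week 11 barely overlapped with the vehicle-treated mice of week 15 and overlapped more with the G-CSF-treated ones. These SOD1 groups were not tested against each other across weeks. Vehicle against WT differed by -1.09 (SE 0.22, 2.13-fold lower, limma adjusted p = 0.00458), and the call remained in each of the 35 fits that left out 1 mouse. The second probe set of Snx10, 1459764_x_at, ranged from 1.78 to 4.15 in WT and from 2.36 to 6.59 in vehicle-treated mice, with a difference of 0.73 (SE 0.41) that did not pass. When the median of both probe sets stood for the gene, the difference was -0.18 and was not called.

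Snx14, a sorting nexin of the endoplasmic reticulum whose loss causes a childhood ataxia, has 1 probe set. It ranged from 6.18 to 7.20 (median 6.60) in WT, from 2.92 to 6.36 (median 5.34) in vehicle-treated and from 3.93 to 7.08 (median 6.37) in G-CSF-treated mice of week 15. All but 1 of the vehicle-treated mice lay below the WT range, and the G-CSF group overlapped with both. The difference of vehicle from WT was -1.53 (SE 0.40, 2.88-fold lower, limma adjusted p = 0.0252). It stayed called without any single mouse, but without the 3 arrays that stood apart it was -1.01 with an adjusted p of 0.118. At week 11 Snx14 ranged from 6.24 to 7.77 in WT and from 6.45 to 8.01 in SOD1 mice.

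Vps50, the subunit that distinguishes EARP, a tether of recycling endosomes that also acts in dense-core vesicles of neurons, ranged from 6.82 to 7.93 (median 7.37) in WT, from 3.05 to 7.45 (median 6.48) in vehicle-treated and from 4.31 to 8.21 (median 5.23) in G-CSF-treated mice. In each treated group 5 of 7 mice were below every WT mouse. The difference of vehicle from WT was -1.64 (SE 0.53, 3.12-fold lower, limma adjusted p = 0.0736). This call was lost without vehicle-treated mouse 3, 5 or 6 or WT mouse 1, 4, 6 or 7 (range -1.91 to -1.18), and without the 3 arrays that stood apart the difference was -1.30 with a limma adjusted p of 0.21. When the median of its probe sets stood for the gene, the difference was -0.71 (limma adjusted p = 0.113) and was not called. Array weights ended the call too. The other genes of GARP and EARP did not pass the test: the differences were 0.27 for Vps51, 0.07 for Vps52, 0.27 for Vps53 and -0.31 for Vps54.

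**Figure D2:**
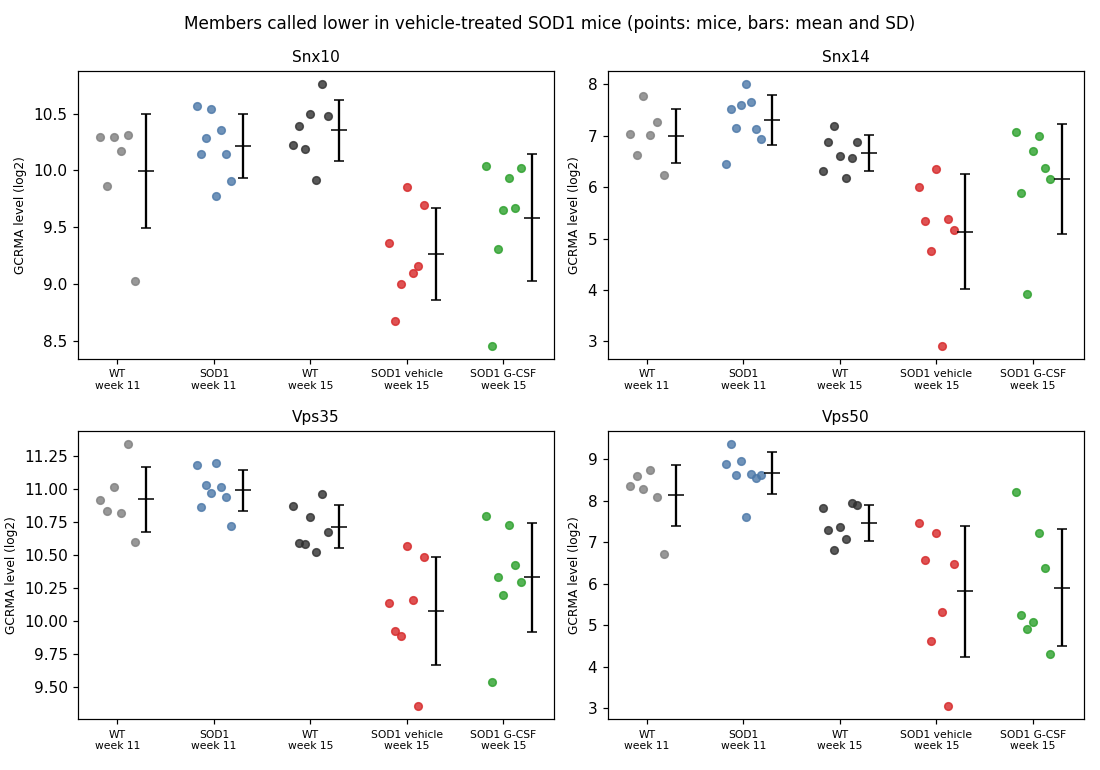
GCRMA level (log2, vertical axis) of Snx10, Snx14, Vps35 and Vps50 in each mouse of the 5 groups (points), with the mean and SD of each group beside them. The 7 vehicle-treated mice sit below all WT mice of week 15 for Snx10, and 6 of 7 do so for Snx14 and Vps35 and 5 of 7 for Vps50.

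The promoters of the members were searched for CACGTG, a palindrome that reads the same on both strands and is the core of the sites bound by MiT/TFE transcription factors, known regulators of lysosomal genes. Of the RefSeq windows of GRCm38.p6, which reach from 250 bases before to 50 bases after a start, 7.15% of 32851 held it. Of the members, 54 genes were matched with 65 windows, of which 9 (13.8%) in 8 genes held it: Pdcd6ip, Snx18, Snx5, Snx8, Vps16, Vps26a, Vps33a and Vps50. None of the 3 windows of Snx10 nor the window of Snx14 held these letters, and in Vps50 they begin 25 bases past the start. The 250 bases before the start of Snx10, Snx14 and Vps50, which were called lower in vehicle-treated mice, and, for contrast, of the retromer gene Vps26a, which holds the letters, for the start that lies farther upstream, are given 5′ to 3′ on the strand of the gene, with CACGTG in capitals, at chr6:51523653-51523902 (plus strand, Snx10), chr9:88438930-88439179 (minus strand, Snx14), chr6:3498143-3498392 (plus strand, Vps50) and chr10:62486806-62487055 (minus strand, Vps26a).
Snx10: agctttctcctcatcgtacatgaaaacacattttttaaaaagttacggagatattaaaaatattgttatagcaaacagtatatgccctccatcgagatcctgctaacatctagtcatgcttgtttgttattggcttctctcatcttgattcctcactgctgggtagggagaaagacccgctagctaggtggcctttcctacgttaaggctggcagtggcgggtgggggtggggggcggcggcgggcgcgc
Snx14: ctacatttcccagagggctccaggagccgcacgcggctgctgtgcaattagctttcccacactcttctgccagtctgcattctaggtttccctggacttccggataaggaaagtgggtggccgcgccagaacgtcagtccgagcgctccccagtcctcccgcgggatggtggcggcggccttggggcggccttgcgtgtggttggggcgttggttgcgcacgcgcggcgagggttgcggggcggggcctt
Vps50: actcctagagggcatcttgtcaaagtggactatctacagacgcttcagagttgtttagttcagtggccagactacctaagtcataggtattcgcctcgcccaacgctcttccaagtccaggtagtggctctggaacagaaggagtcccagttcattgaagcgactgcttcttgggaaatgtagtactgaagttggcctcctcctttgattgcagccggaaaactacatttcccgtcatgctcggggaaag
Vps26a: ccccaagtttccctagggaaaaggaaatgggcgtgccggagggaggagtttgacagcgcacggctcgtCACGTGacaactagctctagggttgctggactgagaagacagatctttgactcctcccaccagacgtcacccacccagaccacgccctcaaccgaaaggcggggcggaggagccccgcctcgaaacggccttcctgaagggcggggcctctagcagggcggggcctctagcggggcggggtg

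Of the 4 retromer core genes 1, Vps35, was called lower in vehicle-treated mice, and the differences of all 4 were below 0. Vps35, the scaffold of the cargo-binding core and a gene mutated in familial Parkinson's disease, ranged from 10.53 to 10.96 (median 10.68) in WT, from 9.35 to 10.57 (median 10.14) in vehicle-treated and from 9.53 to 10.79 (median 10.33) in G-CSF-treated mice. All vehicle-treated mice but 1 were below the WT range. The difference of vehicle from WT was -0.64 (SE 0.17, 1.56-fold lower, limma adjusted p = 0.024), close to the 1.5-fold limit, and it was not called without vehicle-treated mouse 6 (range over single mice left out -0.72 to -0.52), with another quantile normalization or with array weights. Its second probe set, 1415784_at, ranged from 3.91 to 6.35 in WT and from 3.48 to 5.08 in vehicle-treated mice, with a difference of -0.61 (SE 0.34) that did not pass.

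Vps26a, which holds the other end of the core, ranged from 8.48 to 9.39 (median 8.92) in WT and from 7.24 to 9.05 (median 8.46) in vehicle-treated mice, a difference of -0.71 (SE 0.28, adjusted p = 0.152). The differences of Vps26b and Vps29 were -0.29 and -0.20. In the retriever, a related complex, Vps26c differed by -0.33 and Vps35l by -0.08. Neither was called.

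**Figure D3:**
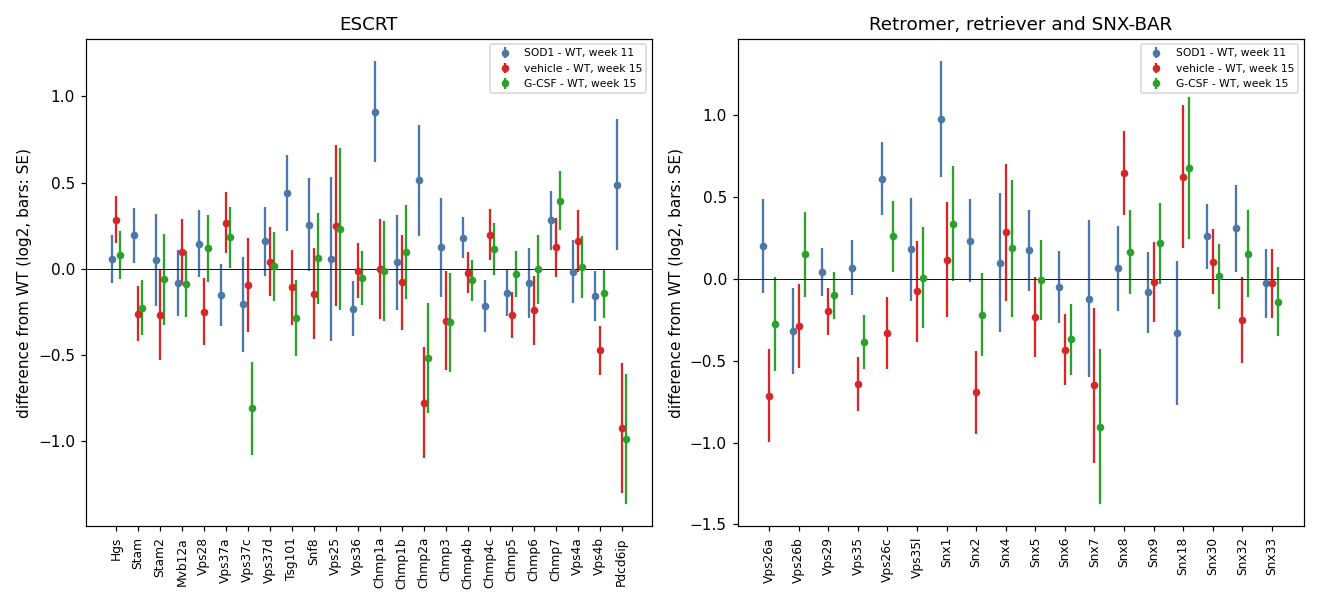
Log2 difference from WT of the same week, with its SE, for the ESCRT genes (left) and for the retromer, retriever and SNX-BAR genes (right) in SOD1 mice of week 11, vehicle-treated and G-CSF-treated mice of week 15. All 4 retromer core genes lie below 0 in vehicle-treated mice, from -0.71 for Vps26a to -0.20 for Vps29, whereas 9 of 24 ESCRT genes lie above 0.

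The 24 tested ESCRT genes gave 0 calls in vehicle against WT with limma, and an unadjusted p under 0.05 was reached by 3 that were lower and 1 that was higher. Pdcd6ip, which encodes ALIX, an adaptor that links cargo to ESCRT-III, ranged from 8.54 to 8.83 (median 8.73) in WT and from 6.45 to 8.17 (median 8.03) in vehicle-treated mice. The groups did not overlap, and with an SE of 0.38 from the fit over 5 groups the difference of -0.92 was not called (limma adjusted p = 0.162). With only the vehicle-treated and WT mice in the fit, Pdcd6ip and Snx2 were called lower beside Snx10, Snx14 and Vps35, and Vps50 was not. In G-CSF-treated mice 6 of 7 values lay below the WT range. Groups that did not overlap were found for 2 of 79 members in this comparison, Pdcd6ip and Snx10, against 1.95% of all genes.

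Vps4b at its brightest probe set ranged from 11.26 to 11.65 in WT and from 10.13 to 11.46 in vehicle-treated mice. Its difference of -0.47 (SE 0.14) had a limma adjusted p of 0.0528 but stayed under the 1.5-fold limit, as did Snx27, a retromer adaptor that recycles receptors at synapses (-0.46, SE 0.15, adjusted p = 0.0775). Chmp2a, an ESCRT-III subunit, ranged from 5.86 to 7.52 in WT and from 4.74 to 7.06 in vehicle-treated mice (difference -0.77, adjusted p = 0.167). Hgs, which starts the ESCRT-0 step, differed by 0.28 (adjusted p = 0.245).

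The remaining core ESCRT genes showed small differences with overlapping groups. In vehicle against WT they were -0.26 for Stam, -0.27 for Stam2, -0.11 for Tsg101, -0.25 for Vps28, 0.27 for Vps37a, -0.14 for Snf8, 0.25 for Vps25, -0.01 for Vps36, -0.30 for Chmp3, -0.02 for Chmp4b, -0.24 for Chmp6 and 0.16 for Vps4a. Chmp4b, the main filament subunit, ranged from 11.40 to 11.67 in WT and from 11.28 to 11.65 in vehicle-treated mice. Tsg101, the ubiquitin-binding subunit of ESCRT-I, ranged from 8.96 to 9.64 and from 8.63 to 9.54.

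Other probe sets of 3 members gave a call, or nearly so, where the brightest did not. For Snx16, a sorting nexin of early and late endosomes, all 3 probe sets were lower in vehicle-treated mice. The probe set 1424276_at ranged from 8.11 to 8.45 in WT and from 6.98 to 7.97 in vehicle-treated mice, with no overlap (difference -0.78, SE 0.22, limma adjusted p = 0.0333), and 1456041_at differed by -0.61 (SE 0.16, adjusted p = 0.0237). The brightest one differed by -0.36 (SE 0.16, adjusted p = 0.198). The call of 1424276_at held without any single mouse, and that of 1456041_at was lost without vehicle-treated mouse 7 or WT mouse 4, 6 or 7. For Stam, an ESCRT-0 subunit, 1416862_at ranged from 6.63 to 7.75 in WT and from 4.42 to 7.36 in vehicle-treated mice (difference -0.98, SE 0.31, adjusted p = 0.0626), and its call was lost without vehicle-treated mouse 2, 3 or 6 or WT mouse 2 or 7. Without the 3 arrays that stood apart the Stam difference was -0.91, with a limma adjusted p of 0.146. For Mvb12a, an ESCRT-I subunit, 1455895_x_at ranged from 3.64 to 4.13 in WT and from 4.14 to 5.26 in vehicle-treated mice, with a difference of 0.58 (SE 0.17, adjusted p = 0.046) just under the fold limit. Over all 155 member probe sets 7 were called lower, which is 4.52%, against 4.2% of all probe sets.

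**Figure D4:**
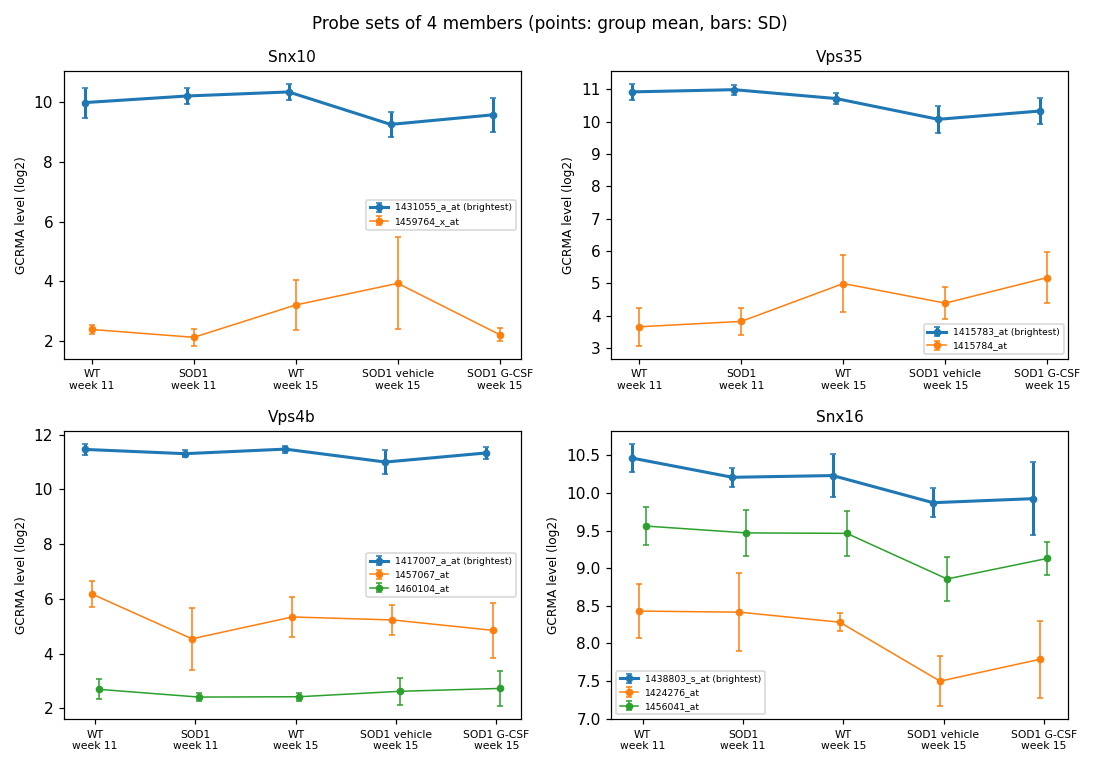
Group mean and SD (GCRMA level, log2, vertical axis) of every probe set of Snx10, Vps35, Vps4b and Snx16 in the 5 groups, with the brightest probe set as the thick line. The 3 probe sets of Snx16 all lie lower in vehicle-treated than in WT mice of week 15, whereas the second probe set of Snx10 does not follow the brightest one.

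Among the SNX-BAR genes 0 of 12 were called in vehicle against WT with limma, and 2 had an unadjusted p under 0.05. Snx2, a partner of Snx1, ranged from 8.49 to 9.28 in WT and from 7.81 to 8.60 in vehicle-treated mice (difference -0.69, SE 0.25, adjusted p = 0.115), and 6 of 7 vehicle-treated mice were below every WT mouse. Snx8 had the largest positive difference of all members, 0.65 (SE 0.26, adjusted p = 0.147). The differences were 0.12 for Snx1, -0.23 for Snx5 and -0.43 for Snx6. Snx3, a partner of the retromer that has no BAR domain, differed by -0.48.

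The tethers HOPS and CORVET had 0 of 8 genes called in vehicle against WT with limma and none with an unadjusted p under 0.05. The differences were 0.04 for Vps11, -0.67 for Vps16, 0.36 for Vps18, -0.26 for Vps33a, -0.02 for Vps39 and -0.21 for Vps41. Of the Vps13 lipid transfer proteins, Vps13a, the chorea-acanthocytosis gene, differed by -0.95 (SE 0.51) and ranged from 4.40 to 8.51 in vehicle-treated mice against 7.11 to 8.73 in WT mice. Vps13c differed by -0.52 (SE 0.27).

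Without the 3 arrays that stood apart, 3 members were called lower in vehicle-treated mice, namely Snx10, Snx7 and Vps35, and 1 was called higher, Vps52, so that Snx10 and Vps35 were shared with the full set. Markers of other cells moved in the same comparison. Of 12 tested microglia markers 6 were called higher and 0 lower, against 1.98% and 5.27% of all genes, and the mean level of the list ranged from 3.42 to 3.77 in WT and from 3.84 to 5.02 in vehicle-treated mice. In this list 9 of 14 genes were above the 20th centile on every array, and Aif1 had a mean of 2.21, below that centile of 2.40. Of the general neuron markers 3 of 10 and of the motoneuron markers 2 of 9 were called lower, against 5.27% of all genes, and the mean of the motoneuron list ranged from 6.51 to 6.94 in WT and from 5.83 to 6.56 in vehicle-treated mice. The part of these shifts in the values of the members was not tested.

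Whether the effect of SOD1 at week 15 differed from that at week 11 was tested as the difference of both effects. The SOD1 effect of week 15 is that of vehicle-treated mice, in which genotype cannot be told apart from the pump with vehicle. It was called for 2 of 79 members, Snx10 and Snx14, both more negative at week 15, against 2.42% of all genes called lower and 0.81% called higher. The SOD1 effect on Snx10 was 0.22 at week 11 and -1.09 at week 15, a difference of -1.31 (SE 0.31, limma adjusted p = 0.0498). For Snx14 the effects were 0.31 and -1.53, a difference of -1.84 (SE 0.57, adjusted p = 0.0976). The call of Snx10 held without any single mouse, whereas that of Snx14 held in only 11 of the 35 fits that left out a mouse. It ended without SOD1 mouse 2, 3, 4, 5, 6 or 7 of week 11, WT mouse 1, 2, 4, 5 or 6 of week 11, vehicle-treated mouse 2, 3, 5 or 6, G-CSF-treated mouse 4, 6 or 7, or WT mouse 1, 2, 3, 4, 6 or 7 of week 15. Without the 3 arrays that stood apart 0 members were called by limma.

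The largest difference of effects belonged to Vps50, at -2.17 (SE 0.76, limma adjusted p = 0.134), and the largest positive one to Snx18, a SNX-BAR protein of autophagy, at 0.96 (SE 0.62). An unadjusted p under 0.05 was reached by 15 members, all in the negative direction, which is 19.0% against 12.6% of all genes, and by 0 in the positive direction against 7.04%. The 15 included Pdcd6ip with -1.41, Chmp2a with -1.29, Vps26c with -0.94, Snx2 with -0.93, Vps26a with -0.91, Snx3 with -0.82, Vps35 with -0.71 and Snx27 with -0.54. Of the members 24 (30.4%) lay above 0 against 46.3% of all genes. The Mvb12a probe set 1455895_x_at was called in the other direction (difference of effects 0.84, SE 0.24, adjusted p = 0.0794), from an effect of -0.26 at week 11 and 0.58 at week 15. Its call was lost without SOD1 mouse 2, 3, 4 or 7 or WT mouse 6 of week 11, vehicle-treated mouse 3 or 6, or WT mouse 2, 4, 6 or 7 of week 15, and without the 3 arrays that stood apart the difference of effects was 0.56 (limma adjusted p = 0.202).

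G-CSF against vehicle showed no called member. With limma 0 of 79 were called, as with the test of the study's methods, against 0.0438% of all genes called in either direction, and 7 members had an unadjusted p under 0.05. Higher in G-CSF-treated mice at that level were Snx14 with 1.02, Vps13b with 0.63, Vps26c with 0.59, Snx13 with 0.43, Snx21 with 0.36 and Vps4b with 0.33, which are 7.59% of the members against 4.98% of all genes. Vps37c, an ESCRT-I subunit, had the lowest difference at -0.72, with medians of 8.43 in vehicle-treated and 7.72 in G-CSF-treated mice. The median difference of the members was 0.05 against 0.01 over all genes, and 45 of 79 (57.0%) were above 0 against 51.8% of all genes. The 1 lower member at an unadjusted p under 0.05 is 1.27% of the members against 3.69% of all genes.

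The levels of the 4 members called lower in vehicle-treated mice are given here for the G-CSF-treated mice too, which were compared with the same vehicle-treated and WT mice. Snx14 had a mean of 5.14 ± 1.11 (SD, n = 7) with vehicle and 6.16 ± 1.08 (SD, n = 7) with G-CSF, against 6.66 ± 0.35 (SD, n = 7) in WT mice. Snx10 had means of 9.26 ± 0.41 with vehicle and 9.58 ± 0.56 with G-CSF against 10.35 ± 0.27 in WT mice. For Vps35 they were 10.07 ± 0.41, 10.33 ± 0.42 and 10.71 ± 0.16, and for Vps50 5.82 ± 1.58, 5.90 ± 1.41 and 7.46 ± 0.44. The difference of G-CSF from vehicle was thus 1.02 (SE 0.40, limma adjusted p = 0.484) for Snx14, 0.32 (SE 0.22) for Snx10, 0.26 (SE 0.17) for Vps35 and 0.09 (SE 0.53) for Vps50, and the groups overlapped for each.

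G-CSF-treated mice against WT mice of the same week gave 0 called members with limma, against 0.467% of all genes called higher and 0.978% called lower. An unadjusted p under 0.05 was reached by 6 members that were lower and 2 that were higher, which are 7.59% and 2.53% against 7.87% and 5.84% of all genes. The lower ones were Vps50 with -1.55, Pdcd6ip with -0.99, Vps37c with -0.81, Snx10 with -0.77, Snx3 with -0.63 and Vps35 with -0.38, and the higher ones Chmp7 with 0.40 and Snx22 with 0.30. The largest positive difference was that of Snx18 at 0.68 (SE 0.44). Snx10 missed the limit narrowly (limma adjusted p = 0.104), and the test of the study's methods called 3 members lower, Snx10, Snx3 and Vps37c. Limma called the same 3 without the 3 arrays that stood apart. Without G-CSF-treated mouse 1 limma called 3, without WT mouse 6 of week 11 or vehicle-treated mouse 3 it called 2, and without vehicle-treated mouse 2 or 4, G-CSF-treated mouse 4 or 5 or WT mouse 5 of week 15 it called 1.

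The WT mice of both weeks were also compared, since the week 11 and week 15 values meet in the test of the SOD1 effects. Of the 79 members 4 were called lower and 0 higher at week 15, against 2.85% of all genes called lower and 2.53% called higher. The 4 were Vps28, Chmp5 and Vps4a of the ESCRT machinery and Snx12, a sorting nexin of endosomes. In the same comparison 21 of 79 members (26.6%) had a difference above 0, against 42.7% of all genes, with a median of -0.21 against -0.06. An unadjusted p under 0.05 was reached by 16 lower members (20.3%, against 10.7%) and 4 higher ones (5.06%, against 6.99%). Among the ESCRT genes 3 of 24 were above 0, and 8 were lower with an unadjusted p under 0.05.

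Chmp5, a late-acting ESCRT-III subunit, ranged from 10.84 to 11.51 (median 11.37) in WT mice of week 11 and from 10.47 to 10.89 (median 10.67) at week 15. WT mouse 6 of week 11 was the single mouse within the week 15 range, and the difference was -0.63 (SE 0.14, 1.55-fold lower, limma adjusted p = 0.00617). Vps28, an ESCRT-I subunit that binds ESCRT-II, ranged from 9.62 to 10.76 (median 10.38) and from 8.99 to 9.91 (median 9.60), a difference of -0.77 (SE 0.20, adjusted p = 0.0224). Both held without any single mouse.

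Vps4a, the second Vps4 ATPase, ranged from 7.08 to 8.46 (median 8.16) at week 11 and from 7.13 to 7.74 (median 7.40) at week 15, a difference of -0.62 (SE 0.19, limma adjusted p = 0.0484). Snx12 ranged from 7.29 to 8.80 (median 8.51) and from 6.91 to 8.03 (median 7.50), a difference of -0.90 (SE 0.28, limma adjusted p = 0.0667). Both pairs of groups overlapped. The call of Vps4a was lost without WT mouse 1, 2 or 3 of week 11 or 1, 2 or 5 of week 15, and that of Snx12 without mouse 1, 2, 4 or 5 of week 11 or 1, 5 or 6 of week 15.

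**Figure D5:**
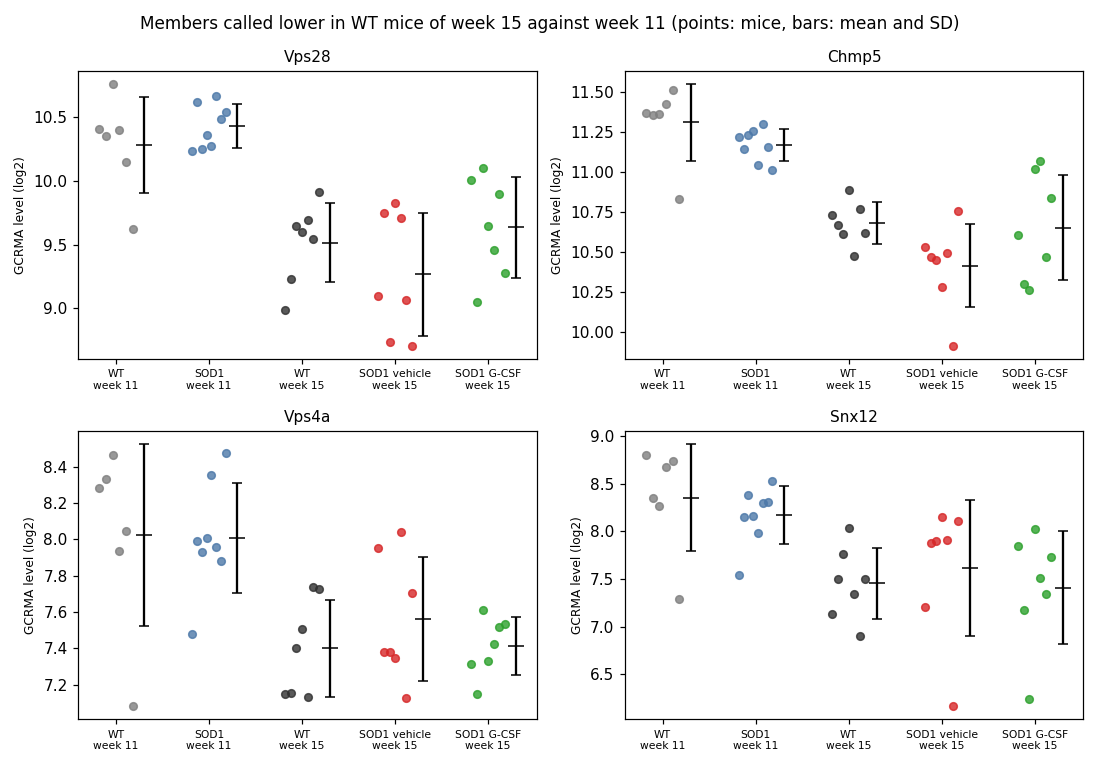
GCRMA level (log2, vertical axis) of Vps28, Chmp5, Vps4a and Snx12 in each mouse of the 5 groups (points), with the mean and SD of each group. The medians of all 3 groups of week 15 are below both medians of week 11 for each gene, and WT mouse 6 of week 11 lies apart from its group for Chmp5 and Snx12.

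Chmp4b and Snx17, a recycling adaptor for retriever, had limma adjusted p-values of 0.0106 and 0.0278 between the WT groups but changed by less than 1.5-fold, with differences of -0.52 and 0.44. Snx4, a SNX-BAR protein that recycles receptors and acts in autophagy, was the 1 member of 79 whose WT groups did not overlap, against 3.29% of all genes. It ranged from 6.71 to 7.74 at week 11 and from 5.68 to 6.47 at week 15, the lowest difference of all members at -1.13 (SE 0.44, adjusted p = 0.152). The highest was that of Snx29 at 0.93 (SE 0.34, adjusted p = 0.118).

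Other probe sets went upward between the WT groups. Vps35 at 1415784_at ranged from 2.84 to 4.39 at week 11 and from 3.91 to 6.35 at week 15 (difference 1.34, SE 0.35, limma adjusted p = 0.0213), whereas its brightest probe set differed by -0.21. Pdcd6ip at 1460263_at differed by 1.03 (SE 0.25, adjusted p = 0.0119) and Vps13a at 1431327_at by 0.79 (SE 0.22, adjusted p = 0.0337), and their brightest probe sets by 0.71 and 0.15. Over the 155 member probe sets 3 were called higher and 4 lower, against 3.29% and 2.26% of all probe sets.

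The weeks also differed in a technical measure. The level of the 18S ribosomal RNA control probe set ranged from 9.23 to 10.86 in WT mice of week 11 and from 12.70 to 13.50 in WT mice of week 15, without overlap, and age and whatever set this level cannot be told apart. With it as a covariate 0 members were called in this comparison by limma. The differences were then -0.10 for Chmp5, -0.03 for Snx12, -1.20 for Vps28 and -1.14 for Vps4a, with limma adjusted p-values of 0.979, 0.998, 0.553 and 0.53. As the covariate separates the WT groups without overlap, this fit cannot tell which of these differences go with age. Without WT mouse 6 of week 11 limma called 10 members, without G-CSF-treated mouse 3 it called 8, and without WT mouse 1 or 2 of week 11 or 1 or 5 of week 15 it called 2. Without the 3 arrays that stood apart 12 were called, all lower at week 15, namely Chmp1a, Chmp4b, Stam2, Snx1, Snx25, Snx32, Vps26b and Vps33b beside the 4 named above. The share of all genes called was not computed for these other fits, so their counts have no background to be set against. Of the oligodendrocyte markers 3 of 9 were called higher at week 15 and 0 lower, against 2.53% and 2.85% of all genes, and the mean of that list ranged from 7.01 to 8.13 in WT mice of week 11 and from 8.03 to 8.47 in those of week 15. Of the astrocyte markers 1 of 10 was called higher, of the motoneuron markers 1 of 9 higher and 1 lower, and of the microglia markers 1 of 12 lower, with a list mean of 3.78 to 4.03 at week 11 and 3.42 to 3.77 at week 15. The part of these shifts in the values of the members was not tested.

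Within genes, the probe sets agreed only loosely. Of 76 pairs of a brightest and another filtered probe set of the same gene, in 41 genes, the differences had the same sign in 39 at week 11, in 49 for vehicle against WT, in 48 for G-CSF against vehicle and in 47 between the WT groups. The median correlation of the pairs over the 35 arrays was 0.039, and it was 0.079 in the 57 pairs whose second probe set lay above the median of all values. Such correlations are a description, since the arrays share 5 groups and many second probe sets are dim.

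Partners of these complexes were followed in a list of 56 genes, 53 of them tested: regulators of ESCRT, the WASH and Commander complexes, endosomal Rab proteins with their effectors, and sorting receptors. In vehicle against WT 1 was called higher and 5 lower with limma, where 1.98% and 5.27% of all genes were. The lower ones were Ccz1, a subunit of the factor that activates Rab7 on late endosomes, with -0.70 (adjusted p = 0.00852), the early endosome GTPase Rab5a with -0.74 (adjusted p = 0.0228), the sorting receptor Sorcs3 with -1.24 (adjusted p = 0.0288), Washc5 of the WASH complex with -0.64 (adjusted p = 0.0938) and Commd8 of Commander with -1.01 (adjusted p = 0.0991). The higher one was Ptpn23, an ESCRT adaptor related to ALIX, with 0.60 (adjusted p = 0.015).

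G-CSF against vehicle called 1 partner, Ccz1, which was higher with G-CSF by 0.83 (SE 0.15, limma adjusted p = 0.0433). Over all genes 0.0438% were called in that comparison. Whether the call of Ccz1 holds without single mice or without the 3 arrays that stood apart was not tested. Its calls here, in vehicle against WT and in the difference of SOD1 effects share the same vehicle-treated mice. The mean of Ccz1 was 8.89 in WT, 8.19 in vehicle-treated and 9.03 in G-CSF-treated mice. The difference of SOD1 effects was called lower for Ccz1 with -0.79, Rab5a with -1.01 and Rab7 with -0.78, which are 3 of 53 partners against 2.42% of all genes. For Rab7 the SOD1 effect was 0.57 at week 11 (limma adjusted p = 0.0408, under the fold limit). At week 15 it was -0.20 (limma adjusted p = 0.422). At week 11 limma called 0 of 53 partners, of which 6 were higher and 2 lower with an unadjusted p under 0.05, against 8.03% and 4.24% of all genes. Between the WT groups 3 partners were called higher and 5 lower, against 2.53% and 2.85% of all genes, and 4 of the lower ones were Commander genes: Commd3 with -1.49, Commd6 with -1.14, Commd10 with -1.03 and Commd7 with -0.64. Another Commander gene, Commd9, was called in the other direction with 0.63 (limma adjusted p = 0.0787).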

How the data were processed

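The authors normalized the scanned Affymetrix arrays with the GCRMA algorithm in Affymetrix Expression Console and deposited log2 values, 1 array per mouse, for 45101 probe sets on 35 arrays; software versions are not given in the sources used here. Probe sets were named from GEO's platform annotation: 34958 name 1 gene, 932 several and 9211 none. Following the study's filter, a probe set was kept if it exceeded the 20th centile of all values (2.40) on at least 4 arrays and its SD reached the 30th centile of the SDs, and 31352 were kept. GCRMA fits arrays together and compresses dim values, so differences near background are imprecise. Groups came from the sample labels, and each mouse was 1 replicate.

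Differences were tested with limma 3.58.1 in R 4.3.3, with all 5 groups in 1 fit, and called with an unadjusted p under 0.05, a Benjamini-Hochberg value under 0.1 and at least a 1.5-fold change. Tables and figures used Python 3.11.15, pandas 2.3.3, numpy 2.4.6 and matplotlib 3.10.9. In a test on simulated data, the fit for vehicle against WT called 22.4% of the 1.5-fold, 64.2% of the 2-fold and 90.9% of the 4-fold changes (67, 67 and 66 of 31352 probe sets), and that for G-CSF against vehicle 14.9%, 44.8% and 93.9%. For SOD1 against WT at week 11 the shares were 22.4%, 46.3% and 92.4%. Few probe sets were changed there, whereas 1316 of 31352 were called lower in vehicle against WT on the measured arrays. These shares therefore cannot be carried over to the measured arrays, where the share of changes missed was not tested. A missing call does not show that a member was unchanged. Precision is limited by how many arrays each group has. Members and lists were chosen with earlier results of these data known. Named are members called in any comparison or by another probe set, a list of core genes and the extremes of each comparison, and other members were named after their values were seen. Alternatives covered the filter, normalization, floor, probe set per gene, samples, replicate block, array weights, variance trend, 18S covariate, calling rule and the methods' ANOVA. For 1 gene of the Chmp family no result is reported here. The highest correlation between 2 arrays was 0.985, and no arrays were taken as duplicates.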

Additional observations from a re-analysis of the deposited data

Results flagged for a closer look

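Single mice lay far from the rest of their group in 14 of 115 groups tested, over 23 probe sets and 10 arrays, where chance gives about 1 in 20. WT mouse 6 of week 11 accounted for 5 of them: it was lowest for Snx10 (9.03), Vps50 (6.70), Chmp5 (10.8) and Snx12 (7.29) and highest for the Mvb12a probe set 1455895_x_at (4.69). Among SOD1 mice of week 11, mouse 8 was lowest for the Stam probe set 1416862_at (6.38), mouse 5 for Vps50 (7.60) and mouse 1 for the Snx16 probe set 1456041_at (8.80). Among vehicle-treated mice, mouse 3 was highest for Vps72 (4.65), mouse 5 lowest for Pdcd6ip (6.45) and mouse 2 highest for the Vps4b probe set 1457067_at (6.31). Among G-CSF-treated mice, mouse 7 was lowest for Pdcd6ip (5.52) and mouse 3 for Snx14 (3.93). WT mouse 1 of week 15 was lowest for Vps72 (3.35).

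The effect of SOD1 differed between week 15 and week 11 in limma's test of the difference for Snx10 (-1.31), Snx14 (-1.84) and the Mvb12a probe set 1455895_x_at (0.84). Without the 3 arrays that stood apart, these were -1.03, -1.17 and 0.56, and none of the 3 was called. What sets these mice apart was not tested.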

How the results depend on the processing

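None of the called differences of members changed sign under the alternatives run, and those of partners and markers were not followed there. The median difference of the members lay between -0.14 and 0.01 for vehicle against WT, between -0.02 and 0.12 for G-CSF against vehicle and between -0.05 and 0.03 for G-CSF against WT, so its sign was not fixed there. It kept its sign in the other 3 comparisons: 0.03 to 0.19 at week 11, -0.24 to -0.07 between the WT groups and -0.31 to -0.13 for the difference of effects. The lowest week 11 value was close to the 0.03 over all genes in the main fit. Medians over all genes were not computed for the alternatives. For SOD1 against WT at week 11 the count of called members was 1. It was 0 with another quantile normalization, with the replicate block and with a minimum fold change of 2, it was 2 without the 3 arrays that stood apart and with the median of all probe sets, and 3 with array weights and with the methods' ANOVA and Tukey's comparison. It ranged from 0 to 2 when 1 mouse was left out (0 without SOD1 mouse 8 or WT mouse 2, 5 or 6, and 2 without WT mouse 3). For vehicle against WT (4) it was 2 with array weights and 6 with the median of all probe sets (Snx14 and Vps35, but not Snx10 or Vps50, among them). It was 3 to 6 without 1 mouse (6 without G-CSF-treated mouse 7). For G-CSF against vehicle it was 0 throughout. For G-CSF against WT (0) it was 1 with a stricter filter, another quantile normalization, the replicate block, an intensity trend and the 18S covariate, 2 with the median of probe sets, 3 with array weights, without the 3 arrays and with Tukey's comparison, and 0 to 3 without 1 mouse. For the WT groups (4) it was 7 with a stricter filter, 10 with only these groups in the fit, 17 with array weights, 0 with the 18S covariate, 12 without the 3 arrays, 0 with a minimum fold change of 2 and 2 to 10 without 1 mouse. For the difference of SOD1 effects (2) it was 1 with another quantile normalization and with the replicate block, 5 with only the groups concerned, 4 with array weights and with the 18S covariate, 0 without the 3 arrays and 1 to 5 without 1 mouse (5 without vehicle-treated mouse 4, and 4 without WT mouse 3 of week 11, vehicle-treated mouse 1 or 7 or G-CSF-treated mouse 2). Tukey's comparison gives no value for that difference. Shares over all genes were computed for the main fit only. Whether a rise or fall of these counts is particular to the members is therefore not known. The cause of these shifts was not tested.

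The replicate numbers of the labels were not taken as pairs. Mice with the same number in different groups had a median correlation of deviations of -0.003 over 66 pairs against 0.002 over 423 other pairs, and 4 of 35 mice correlated best with their own number.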
